A study of Mus musculus with 8 samples.

Results

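The 8 genes described here store iron or carry it between and across cells: Fth1, Ftl1, Trf, Tfrc, Slc11a2, Slc40a1, Cp and Hfe. They were chosen by name for these functions, with earlier results of these data known. They were read by 12 of the 39429 probes of the array. Of those probes 26055 could be given a gene symbol, for 19751 genes in all. RNA came from hand-dissected whole hippocampi of untreated wild type C57BL/6J mice kept in the home cage. Per the study, its oldest mice were ordered from a supplier when already aged and then kept on in its holding rooms. At 3 months (3M) and at 29 months (29M) of age 4 samples each were hybridised, 1 sample per single-colour Cy3 array. The arrays were an additional cohort beside the RNA sequencing of the same study, and asked which hippocampal transcripts differ between these ages.

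Iron is needed for respiration, myelin synthesis and neurotransmitter synthesis, but free ferrous iron generates radicals. Cells therefore take it up bound to transferrin through the transferrin receptor, move it out of endosomes through a divalent metal transporter, keep the excess inside a shell of ferritin heavy and light chains, and release it through ferroportin with the help of a copper ferroxidase. In brain, oligodendrocytes and the choroid plexus are the main sites of transferrin synthesis, and oligodendrocytes are rich in iron. The level of ferritin, transferrin receptor and several other proteins is largely set after transcription, by iron regulatory proteins that bind the mRNA. An array reads the amounts of mRNA, but neither this binding nor the protein levels.

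Levels are normalized log2 intensities, and every change is the mean of the 29M arrays minus that of the 3M arrays on this scale, which understates the change of dim probes. A probe was called at a Benjamini-Hochberg adjusted p under 0.1 in limma and a change of at least 0.5. P-values measure the spread between these samples. In bulk tissue fewer cells of a type and less RNA per cell cannot be told apart. Between 76.2% and 85.0% of spots lay well above background on each array, with the lowest share in 3M replicate 1, and no spot was saturated. All 15 marker genes of hippocampal neurons were well above background on all 8 arrays. Both ages were present on each of the 3 slides. Each array was given the age of the sample under which its scanner output was deposited. In a separate deposited table of local background, 7 of 8 columns matched the array of a different sample, 4 of them of the other age, and its columns ran in the order of slide and array position. Which of the 2 deposited assignments holds was not tested, and every age difference below rests on the first. 3M replicate 3 stood apart in its choroid plexus markers, whose mean level of 12.93 was the lowest of the 8 arrays.

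Trf, which encodes the iron carrier transferrin, was the only gene of the 8 that was called, and it was higher at 29M with both of its probes. No member probe was called lower. Over all tested probes 1.21% were called higher and 0.751% lower, and over genes, each read by its brightest probe, 1.56% were called higher and 0.664% lower. Probes whose 29M arrays all lay above their 3M arrays made up 5.52% of all probes, and those with all 29M arrays below made up 5.55%. Among the 12 member probes 3 showed the first pattern, both of Trf and that of Hfe, and 0 the second. The median change over the 12 probes was 0.04, against 0.00 over all tested probes, with 8 above 0 and 4 below. At an unadjusted p under 0.05 there were 4 member probes, of Trf, Cp and Hfe, all of them higher at 29M, and 0 lower. That threshold was passed by 17.0% of all probes.

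**Figure D1:**
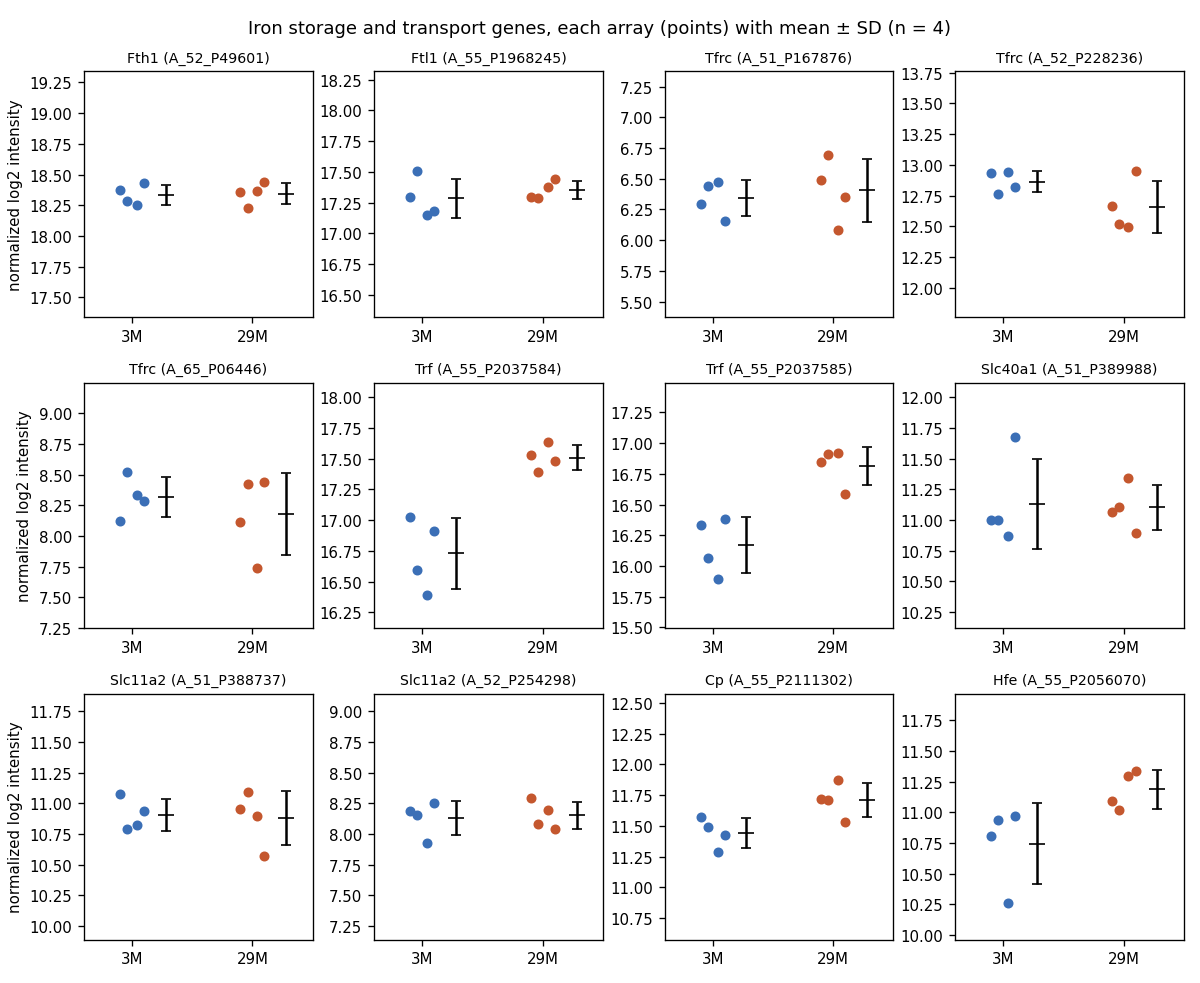
Normalized log2 intensity of the 12 probes of the 8 genes, with 1 point for each of the 4 arrays at 3M (blue) and at 29M (orange), and bars for the mean and SD. The groups do not overlap for both Trf probes and for Hfe, and overlap for the other 9 probes.

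The brightest probe of Trf (A_55_P2037584) read 17.03, 16.59, 16.39 and 16.91 in 3M replicates 1 to 4, and 17.53, 17.39, 17.63 and 17.48 in 29M replicates 1 to 4. All 29M arrays were above all 3M arrays, and the 3M arrays were the more scattered group. The means were 16.73 ± 0.291 (SD, n = 4) at 3M and 17.51 ± 0.103 (SD, n = 4) at 29M. The change was 0.78 (SE 0.14, 95% interval 0.47 to 1.09), a 1.72-fold higher level, with an adjusted p of 0.0292 in limma.

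The second Trf probe (A_55_P2037585) read 16.33, 16.07, 15.90 and 16.38 at 3M and 16.84, 16.91, 16.92 and 16.59 at 29M. Its groups did not overlap either. It rose by 0.65 (SE 0.13, 95% interval 0.36 to 0.93), or 1.57-fold, with a limma adjusted p of 0.0438. Both probes read the same RNA samples and are not separate replicates of the age difference. Within slides 1, 2 and 3 the brightest probe differed by 0.53, 0.79 and 0.89, and the second by 0.42, 0.85 and 0.70. That all are above 0 follows from groups that do not overlap, and adds nothing to it. The value for slide 2 sets only 29M replicate 2 against 3M replicate 2.

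The call of the brightest Trf probe held in 17 of 19 alternative fits, and its change ranged from 0.55 to 0.88. It was lost when the processed signals were scaled to the 75th percentile (0.55, adjusted p = 0.174) and when they were variance stabilised (0.56, adjusted p = 0.109). It held only just under the threshold of 0.1 without 3M replicate 2 (0.73, adjusted p = 0.09999) or 29M replicate 1 (0.77, adjusted p = 0.0980). With the replicate number as a block the adjusted p was 0.0968. The 19 include the reported fit itself at a stricter adjusted p. The second probe was called in 13 of 19 fits. It lost the call at the 75th percentile (0.68, adjusted p = 0.108), with slide as a fixed block (0.64, adjusted p = 0.109) and with the replicate number as a block (adjusted p = 0.149). With 1 array fewer its change stayed close to 0.65 but the call was also lost without 3M replicate 2 (0.61, adjusted p = 0.135), 29M replicate 1 (0.64, adjusted p = 0.126) or 29M replicate 2 (0.61, adjusted p = 0.124). Without 3M replicate 3, the array that stood apart, the changes of both probes were 0.67 (adjusted p = 0.0530) and 0.56 (adjusted p = 0.0905).

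**Figure D2:**
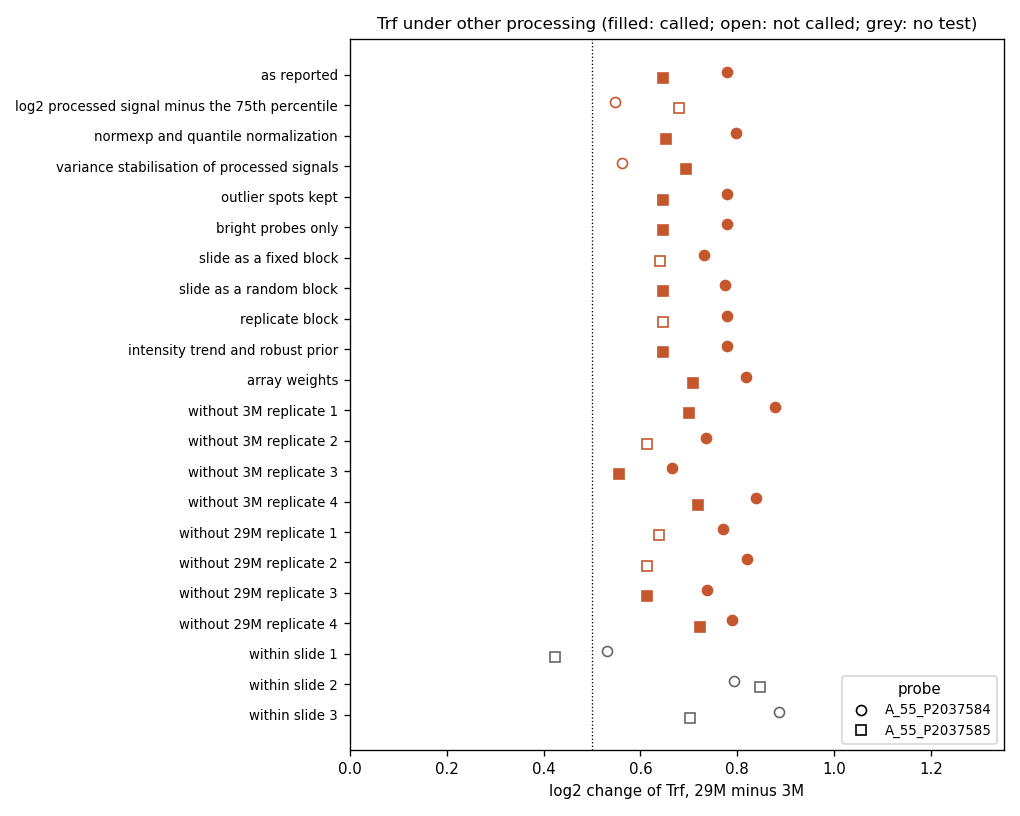
Log2 change (29M minus 3M) of both Trf probes under the reported processing and each alternative except the stricter adjusted p, with filled points for called values, open points for values not called, grey points for differences within 1 slide, which have no test, and a dotted line at 0.5. Every value lies above 0, and the brightest probe (circles) ranges from 0.55 to 0.88 over the fits.

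Marker genes of the cells that make transferrin were set beside this difference. Of 12 oligodendrocyte markers, 0 were called, 10 were above 0 and 2 below, and the median change was 0.16. Their mean level ran from 14.19 to 14.59 over the 3M arrays and from 14.40 to 14.62 over the 29M arrays, so the groups overlapped. No oligodendrocyte marker differed by as much as Trf. The largest difference was 0.63, for Aspa, the aspartoacylase of these cells, and the lowest was -0.24, for Ermn, which encodes the myelin-associated protein ermin. With the oligodendrocyte level of the same array taken off, the brightest Trf probe was higher at 29M by 0.61 (exact permutation test, two-sided p = 0.0571), with overlapping groups. The second probe was higher by 0.48 (p = 0.0286, the smallest that the 70 permutations allow), with no overlap. These relative values, and those for the other cell types, were chosen after seeing the data. They were computed only for Trf, which was already called and whose groups did not overlap. Their p-values therefore add no separate support for an age difference of Trf.

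Of 11 choroid plexus markers 0 were called, with 8 above 0 and a median change of 0.18. Their mean level ran from 12.93 to 14.24 over the 3M arrays and from 13.57 to 13.96 over the 29M arrays, and the difference was 0.24 within slide 1, -0.58 within slide 2 and 0.38 within slide 3. Aqp1 had no usable value in 3M replicate 4, so the level of that array (14.24), and values that use it, leave this marker out. Relative to the choroid plexus level of the same array, Trf was higher at 29M by 0.70 with the brightest probe (exact permutation test, two-sided p = 0.0286) and by 0.57 with the second (p = 0.114). Microglia were compared as well, since these cells take up and store iron. Of 12 microglial markers 2 were called higher, C1qa, a complement subunit, and Trem2, a lipid-sensing receptor, and the median change was 0.32. C1qa, at 0.85, was the 1 microglial marker with a larger difference than Trf. Their mean level ran from 13.72 to 13.97 over the 3M arrays and from 13.87 to 14.21 over the 29M arrays. Cx3cr1 had no usable value in 29M replicate 4, so the microglial level of that array (13.87) leaves it out. Among the 3M arrays the brightest Trf probe and the microglial level had the same order, with replicate 1 highest and replicate 3 lowest, while the second Trf probe was highest in replicate 4. The oligodendrocyte and choroid plexus levels were also highest in 3M replicate 4 and lowest in 3M replicate 3. At 29M the orders differed: the brightest Trf probe was lowest in replicate 2 and the microglial level in replicate 4. Relative to the microglial level of the same array, Trf was higher at 29M by 0.51 with the brightest probe and by 0.38 with the second (exact permutation test, two-sided p = 0.0286 for each), and neither probe's groups overlapped. The microglial difference was 0.07, 0.36 and 0.39 within slides 1, 2 and 3. The part of these cell types in the Trf difference was not tested further.

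**Figure D3:**
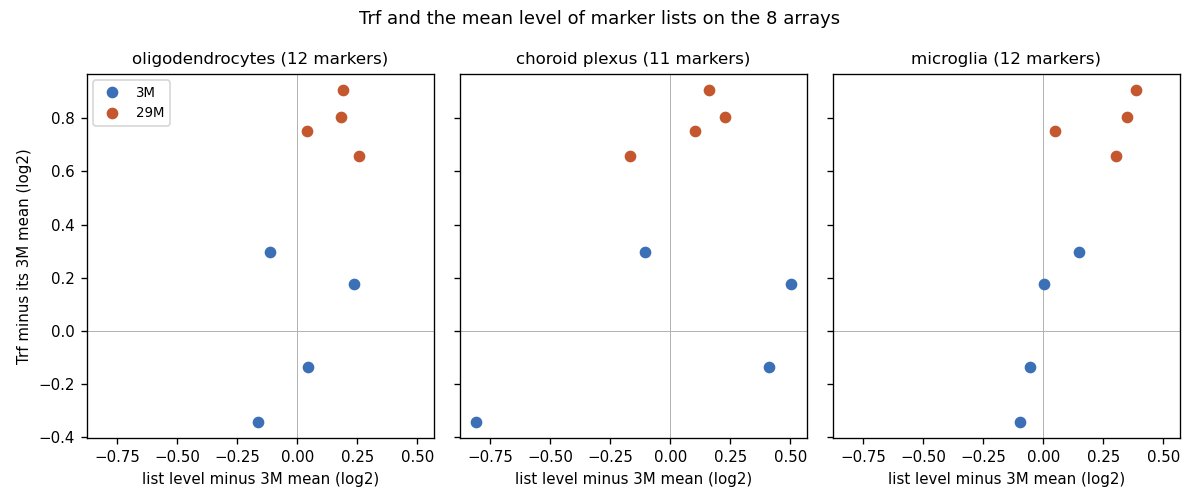
Level of the brightest Trf probe (vertical axis) against the mean level of the oligodendrocyte, choroid plexus and microglial marker lists (horizontal axes), each in log2 units relative to its own 3M mean, with 1 point per array. The 4 arrays at 29M (orange) lie above the 4 at 3M (blue) on the Trf axis, while the marker levels of all 3 lists overlap between the ages.

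Tfrc encodes the transferrin receptor, through which cells take up iron-loaded transferrin. Its brightest probe (A_52_P228236) read 12.94, 12.76, 12.94 and 12.82 at 3M and 12.66, 12.52, 12.49 and 12.95 at 29M. In 3 of 4 arrays at 29M the level was below every 3M array, but 29M replicate 4 was the highest of all 8. The change was -0.21 (SE 0.11, 95% interval -0.45 to 0.04) and did not pass the test (limma adjusted p = 0.380). It was -0.22, -0.24 and -0.21 within the 3 slides, and stayed between -0.30 and -0.15 over the alternative fits. The other Tfrc probes differed by -0.14 (SE 0.16, A_65_P06446) and by 0.06 (SE 0.13, A_51_P167876), neither past the threshold. The last of these was dim, and well above background on 3 of 4 arrays of each age.

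Hfe, an MHC class I-like protein that binds the transferrin receptor and is mutated in hereditary haemochromatosis, read 10.81, 10.94, 10.26 and 10.97 at 3M and 11.09, 11.02, 11.30 and 11.34 at 29M (A_55_P2056070). All 29M arrays lay above all 3M arrays, by a narrow margin, and 3M replicate 3 was far below the rest. The change of 0.44 (SE 0.16, 95% interval 0.09 to 0.80) had an unadjusted p of 0.0201 and a limma adjusted p of 0.202, and was under the threshold for size as well. It was 0.51 and 0.48 within slides 1 and 3 but 0.08 within slide 2. Without 3M replicate 3 it was 0.28.

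Slc11a2 encodes the divalent metal transporter that moves ferrous iron across the endosomal membrane. Its brightest probe (A_51_P388737) read 11.07, 10.79, 10.82 and 10.93 at 3M and 10.95, 11.09, 10.90 and 10.57 at 29M. The ages were interleaved, with a change of -0.03 (SE 0.12, 95% interval -0.29 to 0.24). The sign differed between slides, with -0.34 within slide 1 and 0.30 within slide 2. The second probe (A_52_P254298) differed by 0.02 (SE 0.10, 95% interval -0.19 to 0.24).

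Fth1 and Ftl1 encode the heavy chain of ferritin, which oxidises iron, and the light chain, which helps it form the mineral core. Fth1 (A_52_P49601) read 18.37, 18.28, 18.25 and 18.43 at 3M and 18.35, 18.23, 18.37 and 18.44 at 29M, all within a narrow band. Its change was 0.01 (SE 0.08, 95% interval -0.17 to 0.19). Fth1 lay at the bright end of the scale. At a similar level the choroid plexus marker Ttr read 18.28, 18.28, 18.07 and 18.28 in 3M replicates 1 to 4. The mean level of its marker list read 13.63, 14.15, 12.93 and 14.24 on the same arrays. Whether probes this bright understate a difference was not tested. Ftl1 (A_55_P1968245) read 17.30, 17.51, 17.15 and 17.18 at 3M and 17.30, 17.29, 17.38 and 17.45 at 29M, again with overlapping ages. It differed by 0.07 (SE 0.09, 95% interval -0.14 to 0.28). The upper limits of both intervals were below the lower limit of the change of the brightest Trf probe. Both ferritin genes have processed pseudogenes of near-identical sequence, and whether these probes separate them was not tested.

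Slc40a1 encodes ferroportin, the iron exporter of the cell membrane. It read 11.00, 11.00, 10.87 and 11.68 at 3M and 11.07, 11.11, 11.34 and 10.89 at 29M (A_51_P389988), and 3M replicate 4 stood well above the other 3M arrays. The change was -0.03 (SE 0.18, 95% interval -0.43 to 0.36), and without that array it was 0.15. Neither value passed the test.

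Cp encodes ceruloplasmin, a copper ferroxidase that oxidises the iron that ferroportin releases, and which astrocytes carry on their membrane. It read 11.57, 11.49, 11.28 and 11.42 at 3M and 11.72, 11.71, 11.87 and 11.53 at 29M (A_55_P2111302). In 3 of 4 arrays at 29M it was above every 3M array, and 29M replicate 4 fell inside the 3M range. The change of 0.27 (SE 0.10, 95% interval 0.05 to 0.48) had an unadjusted p of 0.0216 and a limma adjusted p of 0.207. It was above 0 within each slide, at 0.13, 0.22 and 0.37, and ranged from 0.21 to 0.32 over the alternative fits. Of 11 astrocyte markers 1 was called, Gfap, which was higher at 29M. Their mean level was 14.23 to 14.40 at 3M and 14.39 to 14.50 at 29M, and the part of these cells in the Cp values was not tested.

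**Figure D4:**
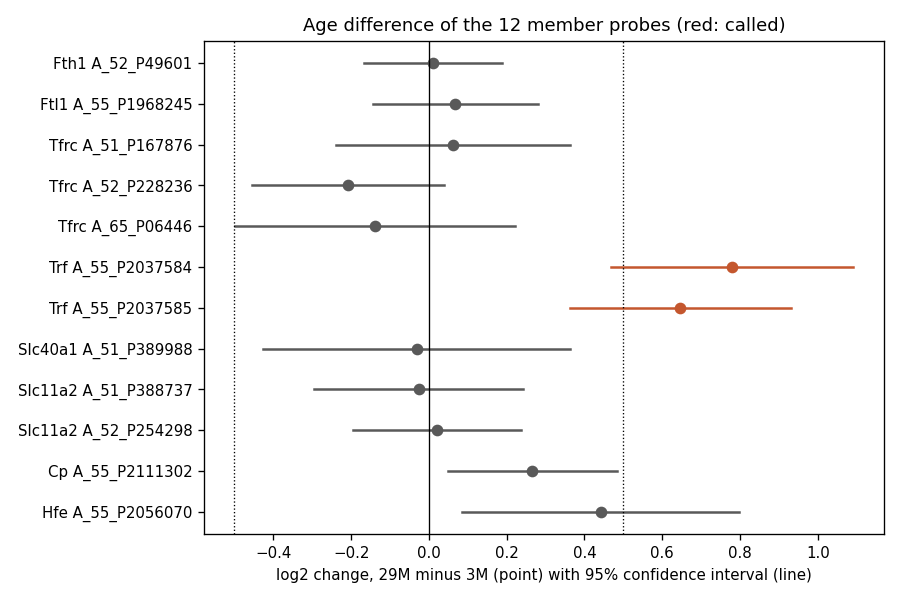
Log2 change (29M minus 3M) with its 95% interval for the 12 probes of the 8 genes. Only the intervals of the Trf, Cp and Hfe probes lie wholly above 0, and only the Trf probes were called.

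The other 66 genes of iron metabolism on the list were all on the array. None was called higher and 1 was called lower, Hephl1. An adjusted p under 0.1, without the condition on size, was reached by 4 of the 66, among them Hephl1, Ireb2 and Hmox1, against 3.94% of all genes. By sign 43 were above 0 and 23 below, and the median change was 0.07. At an unadjusted p under 0.05 there were 9 higher and 4 lower, or 19.7% of the 66, beside 17.4% of all genes.

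Hephl1 encodes a multicopper ferroxidase of the same family as ceruloplasmin. Its probe (A_66_P133085) read 7.22, 6.63, 6.60 and 6.75 at 3M and 6.16, 5.88, 6.23 and 6.04 at 29M, and the ages did not overlap. It fell by 0.72 (SE 0.14, limma adjusted p = 0.0459), and the change was -1.28 (adjusted p = 0.0987) when processed signals were scaled to the 75th percentile. The probe was dim, well above background on 4 of 4 arrays at 3M but on 2 of 4 at 29M. The change kept about its size but the call was lost without 29M replicate 1 (-0.75, adjusted p = 0.113), 29M replicate 2 (-0.66, adjusted p = 0.125) or 29M replicate 4 (-0.71, adjusted p = 0.113). Heph, which encodes the ferroxidase hephaestin and was the other exporter-related gene on the list, had a change of -0.44 (SE 0.13, limma adjusted p = 0.133), with no overlap between ages. It was called with slide as a fixed block. Its 2 other probes differed by -0.17 and -0.10.

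**Figure D5:**
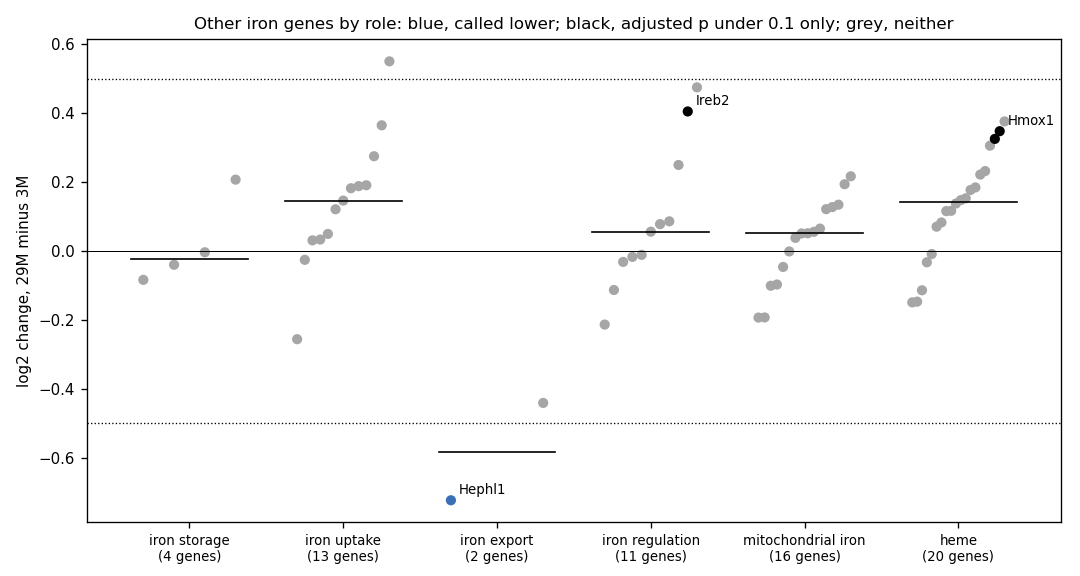
Log2 change (29M minus 3M) of the brightest probe of each of the 66 other iron genes, grouped by role, with a bar at each group's median and dotted lines at the size threshold of 0.5. Hephl1 is the only gene called, and the black points, Ireb2 and Hmox1 among them, passed the adjusted p alone.

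Of 11 regulators of iron 1 had an adjusted p under 0.1. This was Ireb2, an iron regulatory protein that binds the mRNA of ferritin and of the transferrin receptor. It read 7.60, 7.74, 7.77 and 7.55 at 3M and 8.09, 7.92, 8.12 and 8.16 at 29M, so each 29M array was higher. Its change of 0.40 (SE 0.09, limma adjusted p = 0.0573) was under the size threshold. The other iron regulatory protein, Aco1, differed by -0.11 (adjusted p = 0.801), and Fbxl5, the ubiquitin ligase adaptor that directs Ireb2 to degradation, by 0.06. Bmp6, a ligand that drives hepcidin transcription in liver, differed by 0.47 (SE 0.16, adjusted p = 0.173). Hamp, hepcidin itself, was well above background on 1 of 8 arrays.

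None of the 4 storage genes was called. Ncoa4, the receptor for ferritin turnover, differed by -0.04, and the iron chaperones Pcbp1 and Pcbp2 by 0.00 and 0.21. None of 13 uptake genes was called either, with a median of 0.15. Here the zinc and iron importer Slc39a14 differed by 0.05 and the ferrireductases Steap2 and Steap3 by 0.19 and 0.15. A second Steap3 probe was at -0.47 (adjusted p = 0.154), the opposite sign. The largest difference among the uptake genes, named after its values were seen, was 0.55 for Lcn2, a siderophore-binding protein, with an SE of 0.34 and an interval from -0.22 to 1.32. It was 0.20 without 3M replicate 4, the lowest array at 9.25.

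The 16 mitochondrial iron genes had a median change of 0.05, and none had an adjusted p under 0.1. The mitochondrial importers Slc25a37 and Slc25a28 differed by -0.10 and 0.12, and the scaffold of iron-sulphur cluster assembly, Iscu, by 0.19 (adjusted p = 0.340).

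The 20 heme genes had a median change of 0.14, with 15 above 0 and 5 below, and 2 had an adjusted p under 0.1. Among them was Hmox1, the inducible heme oxygenase that frees iron from heme, at 0.35 (SE 0.09, limma adjusted p = 0.0917). A second Hmox1 probe differed by -0.01. The constitutive oxygenase Hmox2 differed by 0.15, biliverdin reductase B (Blvrb) by 0.14 and the heme exporter Flvcr1 by 0.18. Hemopexin (Hpx), which binds free heme, differed by 0.23 and the heme transporter Slc48a1 by 0.38 (adjusted p = 0.227), neither past the threshold.

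Blood left in the tissue brings transcripts of heme and iron genes of its own. Of 9 erythroid markers 7 were matched on the array, 0 were called, and their mean level was 11.532 to 11.996 at 3M and 11.450 to 11.953 at 29M.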

How the data were processed

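Hippocampal RNA of 8 samples, 4 at each age, was measured. The authors deposited scanner output of each array as intensities on a linear scale, made with Agilent Feature Extraction software per the file headers. Software, scanner and array design there differ from those in the study's methods, and the headers were followed. The median intensity of each spot was the input, because these files gave no mean intensity. The deposited series table holds intensities of local background (equal to a tolerance of 0.001), in columns that match other samples' arrays in 7 of 8 cases, and was used only for this check.

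Control spots were dropped, as were outlier spots (127 to 190 per array). Variance stabilising normalization, as in the study's methods, was implemented in R 4.3.3 (trimming quantile 0.9, 7 iterations). Spots of 1 probe were averaged. Age was the single term of a linear model in limma 3.58.1, run on the 39408 probes with at least 3 usable arrays per age. Calls needed a Benjamini-Hochberg adjusted p under 0.1 and a log2 change of at least 0.5 (1.414-fold). The number of arrays limits the precision. On simulated data for this comparison (39098 probes, 200 changed), 91.78% of changes of 1 on the log2 scale were recovered. The changed probes were drawn from the brighter ones, and no slide effect was simulated. Changes below 1, as those of all member probes were, were not simulated, so their recovery is not known.

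Genes were named from the probes' accessions (66.1% of probes), through RefSeq. All 8 members were named, with every probe, and further iron genes by function, plus any other iron gene called, except a gene that is not reported here. The 3 genes most like each member were named by correlation. Members and lists were chosen with earlier results of these data known. Alternatives covered the background correction, scaling, outlier spots, dim probes, slide and replicate blocks, prior, array weights, threshold and each array left out. The replicate numbers come from the sample titles.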

Additional observations from a re-analysis of the deposited data

Results flagged for a closer look

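In 86 groups of 4 arrays of 1 age, most of 1 probe, 2 held an array far from the other 3 by Dixon's test. This was fewer than the 4.3 expected where chance marks 1 in 20. For Slc40a1, 3M replicate 4 read 11.68 while the other 3M arrays read 10.87 to 11.00, and the gap took 0.837 of the group's range. For Slc25a37, 3M replicate 3 read 12.95 against 12.72 to 12.76, and the gap took 0.855 of the range.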

How the results depend on the processing

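Both member probes called higher were those of Trf. Of the 2, the count was 0 with the 75th percentile and 1 with variance stabilisation of processed signals, with slide as a fixed block and with the replicate block, and 1 to 2 with single arrays left out. The count of member genes, each by its brightest probe, was 0 rather than 1 with the 75th percentile and with variance stabilisation of processed signals. Iron genes called lower were 2 rather than 1 with slide as a fixed block and 0 to 1 with single arrays left out. Over all probes 476 higher and 296 lower calls became 275 and 159 with the replicate block, 787 and 570 with array weights, 306 and 181 at an adjusted p under 0.05, and 261 to 792 and 140 to 592 with single arrays left out. The replicate numbers did not pair the samples: deviations of same-numbered arrays correlated between -0.26 and 0.22, and the replicate block is one more alternative only.

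Small changes turned sign. At the 75th percentile these were Fth1 -0.0415, Tfrc A_51_P167876 -0.0828, Ncoa4 0.0149, Pcbp1 0.0409, Slc39a14 -0.0609 and Steap3 -0.0396. With variance stabilisation of processed signals they were Fth1 -0.0265, Tfrc A_51_P167876 -0.0197, Ncoa4 0.0298, Pcbp1 0.0559, Slc39a14 -0.0456 and Steap3 -0.0238. With normexp Pcbp1 was 0.00161. With slide as a fixed block Fth1 was -0.000182 and Aco1 0.0202. With array weights Fth1 was -0.000138, Ftl1 -0.0187, Slc11a2 0.0871 and Pcbp1 0.0400. With single arrays left out the ranges were -0.0188 to 0.0515 for Fth1, -0.0336 to 0.170 and -0.227 to 0.00823 for Tfrc A_51_P167876 and A_65_P06446, -0.121 to 0.149 for Slc40a1, -0.0970 to 0.0752 and -0.0473 to 0.0607 for the Slc11a2 probes, -0.118 to 0.0141 for Ncoa4, -0.0633 to 0.0578 for Pcbp1, -0.0178 to 0.130 for Slc39a14 and -0.0463 to 0.318 for Steap2. The cause was not tested. Leaving arrays out moved the choroid plexus median between -0.12 and 0.33. Signal over background limits Hephl1, Hamp and the dim Tfrc probe.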

Other observations

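With the mean of each age taken off, Trf correlated over the 8 arrays with Fth1 (r = 0.70), Hfe (r = 0.67), Cp (r = 0.64) and Slc40a1 (r = 0.53). Tfrc ran opposite to Cp (r = -0.67) and Slc11a2 (r = -0.61). These are descriptions, since the points share arrays and normalization.

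The same measure was taken against 15913 other genes. The genes most like Trf were Ipo4 (r = 0.98), 9130008F23Rik (r = 0.98) and Nudt7 (r = 0.98). Those most like Tfrc were Creb3l4, Malsu1 and Wdr45, for Hfe they were Ccdc113, B4galt1 and Smim5, and for Slc11a2 they were Il1rap, Tmem273 and Aldh1l2. For Fth1 they were Tmem82, 1700073E17Rik and Jsrp1, for Ftl1 Fbxl4, Reep4 and Star, for Slc40a1 Adamts12, Cbr3 and Ovca2, and for Cp Mcm7, Tcirg1 and Ctss. Nothing on shared function or control follows from these values.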
